A study of Arabidopsis thaliana with 6 samples.

Results

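The genes described here are carried by the mitochondrial genome of Arabidopsis thaliana and encode subunits of the respiratory chain: nad1, nad2, nad4, nad4L, nad5, nad6, nad7 and nad9 of NADH dehydrogenase (complex I), and cox1 and cox2 of cytochrome c oxidase (complex IV). They were taken as the probe sets for which the array's annotation lists one of these names and no other gene. That gave 10 of 13350 genes with a probe set of their own, and 17 of the 22746 probe sets tested: 7 for nad1, 2 for nad5 and 1 for each of the other 8 genes. Another 2 probe sets list nad1 together with another gene and were left out. They differed from control by -0.04 and 0.19 in local and by -0.18 and 0.30 in systemic leaves, none past the threshold.

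Levels were measured on Affymetrix expression arrays in leaves of plants of an ecotype labelled Colombia, 5 weeks old and grown with 10 h of light a day, and the labels name no transgene or mutation. Control leaves came from unwounded plants. Local leaves were harvested 10 min after 3 rosette leaves of a plant had been clamped with tweezers over the midvein, and systemic leaves were unwounded leaves of wounded plants, taken at the same time. Each group had 2 arrays, each from a pool of leaves of 3 plants, so plants within a pool were averaged. Each probe set has a level on the log2 scale, made with RMA, so a difference of 1 is 2-fold. The level of a probe set depends on its probes, and levels are compared only within a probe set.

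Respiration in mitochondria passes electrons from NADH and succinate through membrane complexes to oxygen, and complexes I and IV pump protons as they do so. The most hydrophobic subunits of these complexes are still made inside the mitochondrion, while most other subunits are encoded in the nucleus and imported, so each complex is built from the products of both genomes. Several of the mitochondrial genes are split by introns, and nad1, nad2 and nad5 are pieced together from separately transcribed parts by trans-splicing. The labelling kit primes from poly(A) tails, which in plant mitochondria mark RNA for degradation. A long nuclear copy of mitochondrial DNA on chromosome 2 can also match some probes.

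Array properties that could touch these values were as follows. For ubiquitin, the level of the 3' control set minus that of the 5' set, a sign of RNA integrity, was 0.97 and 1.05 on the local arrays and 1.23 to 1.33 on the other 4. For actin and GAPDH the same measure overlapped between groups. The added poly-A control RNAs were lowest on control replicate 2 (a mean of 7.03, against 7.30 to 7.99). The mesophyll markers measured, LHCB4.1 and RCA (2 of 8 on the list), summed to 28.79 to 28.84 on all arrays. Both lay near the highest deposited value of 14.66, where a difference may not show. The root marker EXP7 was at 4.70 to 5.16. The summed guard cell lineage markers FMA and SPCH (2 of 4) ran from 12.08 to 12.44 in control, 11.02 to 11.08 in local and 11.59 to 11.78 in systemic leaves. SPCH fell in both (by 0.92 and 0.73, adjusted p = 0.00041 and 0.0039 by limma), while FMA was not called (-0.29 and 0.15). The dividing cell marker AUR1 (1 of 3) ran from 6.49 to 6.56, 5.57 to 5.71 and 5.80 to 5.90. It was called lower in both leaves (-0.89 and -0.67, adjusted p = 0.00056 and 0.0061 by limma). The phloem marker SWEET11 (1 of 4) ran from 10.41 to 10.90, 11.40 to 11.50 and 10.85 to 11.07. It was called higher in local leaves only (0.79, adjusted p = 0.011). The trichome marker TRY (1 of 3) ran from 6.15 to 6.46, 6.49 to 6.80 and 6.75 to 6.78, and was not called. No xylem marker of the list had a named probe set. The part of these markers and of RNA quality in the results below was not tested, and in whole leaves fewer cells of a type cannot be told apart from less RNA per cell.

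In wounded leaves nad4L, nad9, cox1 and 1 of the 7 probe sets of nad1 were higher than in control leaves, and no member was lower past the threshold of an adjusted p of 0.05. These were 4 of 17 member probe sets (23.5%), against 9.92% called higher over all probe sets tested and 13.7% called lower. After cyclic loess, 54.8% of all calls in this comparison were higher, against 42.0% with the values as deposited. In either direction 23.6% of all probe sets were called, so the members were not called more often than the array as a whole, and their calls lay on the higher side. The median member difference was 0.24, against -0.04 over all probe sets.

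The gene nad4L encodes a small subunit of the membrane arm of complex I. It was at 5.58 and 5.74 on the control arrays, 6.59 and 6.51 on the local arrays and 5.42 and 5.50 on the systemic arrays. Both local arrays stood above the other 4, while control and systemic arrays lay close together. Local leaves were higher than control by 0.90 ± 0.10 (SE, n = 2 arrays each, 1.86-fold, adjusted p = 0.00058 by limma) and higher than systemic leaves by 1.09 ± 0.10 (2.13-fold, adjusted p = 0.00098). The systemic difference from control was -0.20 ± 0.10 (adjusted p = 0.31), with the groups not overlapping.

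The gene nad9, whose product lies in the arm of complex I that reaches into the matrix, had the closest replicates of the genes that rose. Its levels were 6.29 and 6.23 in control, 7.11 and 7.07 in local and 6.15 and 6.19 in systemic leaves. The rise of 0.83 ± 0.09 in local leaves (1.78-fold, adjusted p = 0.00048 by limma) was far larger than the spread between replicates, whose SD was 0.04 in control and 0.03 in local leaves. In systemic leaves it differed by -0.09 ± 0.09 (adjusted p = 0.64). The calls of nad4L and nad9 in local leaves, against control and against systemic leaves, held with each array left out in turn and under every other alternative tried.

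The gene cox1 encodes the catalytic subunit of cytochrome c oxidase. It was at 7.73 and 7.47 in control, 8.26 and 8.18 in local and 7.44 and 7.23 in systemic leaves. Here too both local arrays lay above all others and both systemic arrays below the control arrays. It rose by 0.62 ± 0.12 in local leaves (1.54-fold, adjusted p = 0.0086 by limma), a call lost without local replicate 1 (0.58, adjusted p = 0.064). Its systemic difference was -0.27 ± 0.12 (adjusted p = 0.26). For cox2, which encodes the subunit that takes electrons from cytochrome c, levels were 5.63 and 5.86 in control, 6.12 and 6.13 in local, and 5.69 and 5.10 in systemic leaves. The local arrays were again the highest, but the difference of 0.38 ± 0.18 from control did not pass (adjusted p = 0.19), and the systemic arrays were far apart.

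**Figure D1:**
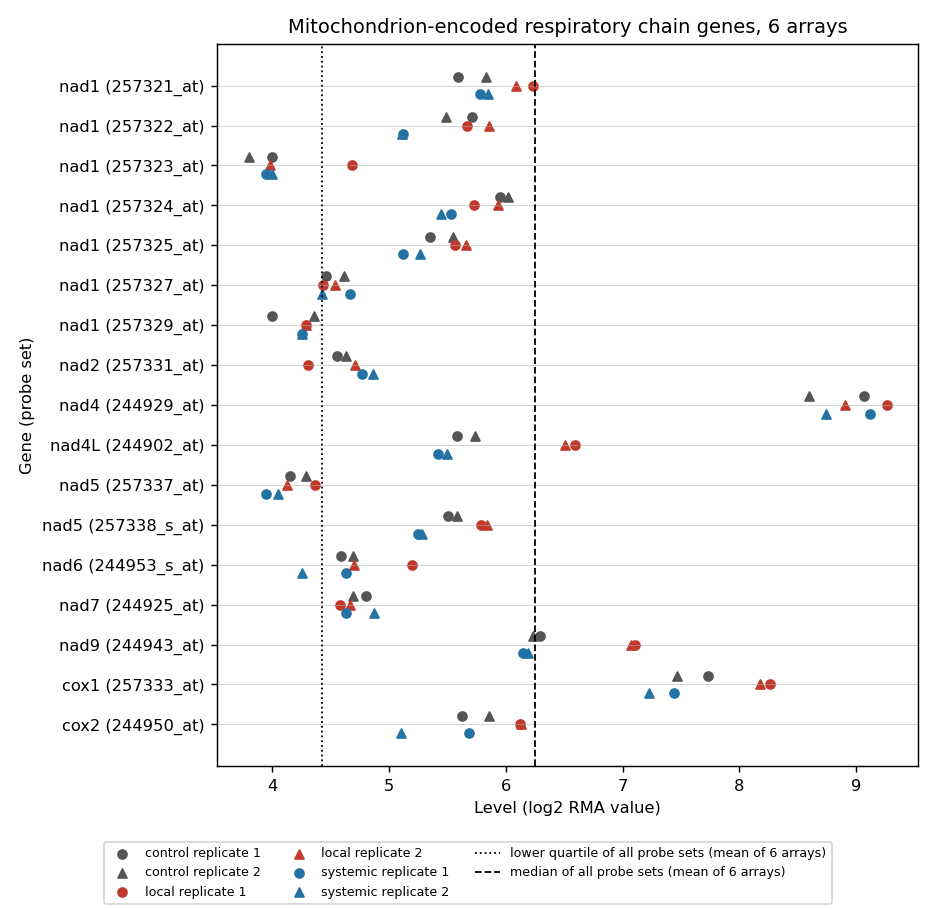
Level of each of the 17 probe sets (log2 RMA value, horizontal axis) on each of the 6 arrays, coloured by group and shaped by replicate, with the lower quartile and median of all probe sets as vertical lines. In nad4L, nad9, cox1 and cox2 both local arrays lie to the right of the other 4, while nad7 and nad2 show no such order.

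The other genes of complex I were less uniform. For nad5, the set 257338_s_at was at 5.51 and 5.58 in control, 5.79 and 5.84 in local and 5.25 and 5.28 in systemic leaves. These 3 groups did not overlap, but neither difference from control passed (0.28 ± 0.09, adjusted p = 0.061, and -0.28 ± 0.09, adjusted p = 0.11, by limma), and the local one passed after cyclic loess (0.35, adjusted p = 0.021). The other set of nad5, 257337_at, lay below the lower quartile of the array and differed by 0.03 ± 0.11. The subunit gene nad6 was at 4.59 and 4.69 in control, 5.20 and 4.70 in local and 4.63 and 4.26 in systemic leaves, so its difference of 0.31 ± 0.18 in local leaves came mostly from 1 array.

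The gene nad4, which encodes a large membrane subunit, gave a signal well above the median of the array and varied more between replicates than between groups. Its levels were 9.07 and 8.60 in control, 9.26 and 8.90 in local and 9.12 and 8.74 in systemic leaves. Replicate 1 was above replicate 2 by 0.35 to 0.47 in every group, more than the local difference of 0.24 ± 0.20 (adjusted p = 0.45 by limma). Within each replicate number the local array of nad4 was the highest and the control array the lowest. With the replicate number as a block, the local difference of nad4 was still not called (adjusted p = 0.1). The gene nad7, whose product takes part in quinone binding, was at 4.80 and 4.69 in control, 4.58 and 4.67 in local and 4.63 and 4.87 in systemic leaves, with a local difference of -0.12 ± 0.11. The membrane subunit gene nad2 was at 4.56 and 4.63, 4.31 and 4.71, and 4.77 and 4.86, with a local difference of -0.08 ± 0.13. Both, and nad6 above, were close to the lower quartile of the arrays (4.41 to 4.48). In that range background weighs heavily and differences may come out too small. What part this had in the values of nad2, nad6 and nad7 was not tested.

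The 7 probe sets of nad1, which encodes the membrane subunit next to the quinone site, did not move together. The set 257321_at was at 5.59 and 5.83 in control, 6.23 and 6.09 in local and 5.78 and 5.85 in systemic leaves, and was the only one to rise in local leaves (0.45 ± 0.11, adjusted p = 0.025 by limma). That call was lost without control replicate 1 (0.32, adjusted p = 0.12), local replicate 1 (0.38, adjusted p = 0.15) or local replicate 2 (0.52, adjusted p = 0.051). The set 257323_at, at 4.68 and 3.98 on the local arrays and 3.80 to 4.0 on the others, stood out on a single array, and it passed without local replicate 2 (0.78, adjusted p = 0.01, and 0.71 against systemic leaves, adjusted p = 0.03). The other 5 sets differed by -0.15 to 0.17 in local leaves. Which stretch of nad1 each set reads was not determined here.

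In systemic leaves 2 of the 7 probe sets of nad1 were called lower and no member was called higher. Of the other nad1 sets, 257321_at, 257323_at, 257327_at and 257329_at differed from control by 0.01 to 0.10, none called. The set 257325_at differed by -0.25 ± 0.11, with both systemic arrays below both control arrays, but was not called (adjusted p = 0.22 by limma). The median of the members was -0.20, and that of all probe sets was -0.02. The 2 calls were 11.8% of the 17 probe sets, against 3.67% called lower, 4.73% called higher and 8.4% called in either direction over all probe sets. The set 257324_at was at 5.95 and 6.02 in control and 5.53 and 5.45 in systemic leaves, and fell by 0.50 ± 0.10 (adjusted p = 0.024 by limma). The set 257322_at, at 5.71 and 5.49 in control, 5.67 and 5.86 in local and 5.12 and 5.11 in systemic leaves, fell by 0.48 ± 0.11 (adjusted p = 0.039). Both calls were weak. That of 257324_at was lost without either control or either systemic array (adjusted p between 0.066 and 0.12), and that of 257322_at without control replicate 1 or any local or systemic array (adjusted p between 0.052 and 0.16), and also after cyclic loess, with trended moderation and with only the 4 arrays compared (0.063, 0.058 and 0.052). Both systemic arrays lay below both control arrays in 8 of 17 member probe sets (47.1%), against 27.9% of all probe sets, and above them for 1 member, nad2, against 22.8%.

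**Figure D2:**
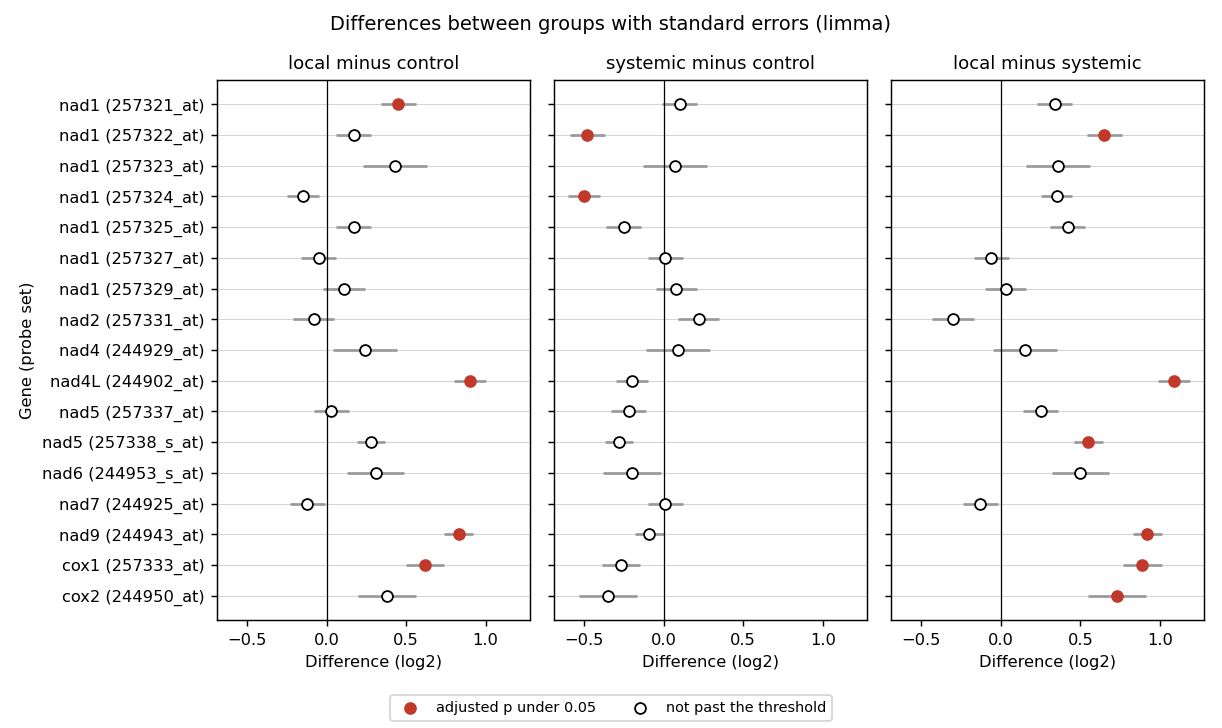
Difference between groups (log2, horizontal axis) with its standard error for the 17 probe sets, in panels for local minus control, systemic minus control and local minus systemic, with filled red points for an adjusted p under 0.05. The largest values are those of nad4L at 0.90 and 1.09 in the panels with local leaves, and the only filled points in the systemic panel are 2 sets of nad1 at -0.48 and -0.50.

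Comparing local with systemic leaves sets the clamped leaf against an unwounded leaf of a wounded plant, while local and systemic leaves were both compared with the same control arrays above. Here 6 of 17 member probe sets were called (35.3%), all higher in local leaves, against 4.77% called higher, 4.93% called lower and 9.7% called in either direction over all probe sets. After cyclic loess, 60.5% of all calls here were higher, against 49.1% as deposited. The median difference was 0.36, against -0.03. Besides nad4L they were nad9 (0.92 ± 0.09, adjusted p = 0.0012 by limma), cox1 (0.89 ± 0.12, adjusted p = 0.0051), cox2 (0.73 ± 0.18, adjusted p = 0.043), 257338_s_at of nad5 (0.55 ± 0.09, adjusted p = 0.0094) and 257322_at of nad1 (0.65 ± 0.11, adjusted p = 0.012). The count was 3 without local replicate 1 or systemic replicate 2. Of the named sets, cox1 lost its call without local replicate 1 (adjusted p = 0.051), and cox2 did so without either local array (adjusted p = 0.2 and 0.14) and without systemic replicate 2 (0.44, adjusted p = 0.17). The set of nad5 lost it without local replicate 1 or either systemic array (adjusted p between 0.052 and 0.064), and that of nad1 without local replicate 2 or either systemic array (adjusted p between 0.056 and 0.075). Another nad1 set, 257325_at, missed the threshold (0.42 ± 0.11, adjusted p = 0.051) and passed with the replicate number as a block (adjusted p = 0.031) and under 7 other alternatives.

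Both local arrays lay above both control arrays in 8 of 17 member probe sets (47.1%), against 23.5% of all probe sets, and above both systemic arrays in 12 of 17 (70.6%), against 22.3%. They lay below both control arrays in 2 member probe sets, against 35.8% of all, and below both systemic arrays in 1, against 31.1%. They were above all other 4 arrays in 8 of 17, against 13.7% of all probe sets. The mean over the members, each centred on its own mean over the arrays, was -0.06 and -0.03 in control, 0.25 and 0.19 in local, and -0.15 and -0.21 in systemic leaves. As a description over 6 arrays of 3 groups, nad4L and cox1 followed the mean of the other genes most closely (r = 0.96 each), while nad2 and nad7 ran against it (r = -0.76 and -0.69). Outside the mitochondrial genome, the genes whose 6 values were most like the members' mean were AT1G51200, APS4, which encodes an ATP sulfurylase, AT3G28940, AT5G08500 and AT1G19025 (r = 0.986 to 0.994). They were picked as the highest of all probe sets with 1 gene.

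Of 6 other genes of the mitochondrial genome with a probe set of their own, 1 was called higher in local leaves and none lower, with a median of 0.19. It was matR, which encodes a splicing maturase and lies in an intron of nad1, at 4.53 and 4.50 in control, 4.92 and 4.78 in local and 4.52 and 4.65 in systemic leaves (0.33 ± 0.10, adjusted p = 0.047 by limma). That call was lost with any of the 6 arrays left out (adjusted p between 0.061 and 0.25) with the replicate number as a block (0.056), with trended moderation (0.057) and with only the 4 arrays compared (0.061). The cytochrome c maturation genes ccmFN1, ccmFN2, ccmFC and ccmB differed by 0.16 ± 0.22, 0.25 ± 0.16, 0.23 ± 0.13 and 0.10 ± 0.10, and mttB, which encodes a protein translocase subunit, by 0.00 ± 0.09. In systemic leaves none of the 6 was called, and their differences ran from -0.16 to 0.11. The level of matR lay near the lower quartile of the arrays, as did those of nad2, nad6 and nad7.

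Probe sets assigned to the nuclear copy of mitochondrial DNA on chromosome 2 can share sequence with the mitochondrial genes. Of 34 measured genes there, 3 were higher in local leaves than in control and none lower, with a median of 0.06. Over all probe sets 9.92% were called higher and 13.7% lower in that comparison. Against systemic leaves, 4 of the 34 were higher in local leaves and none lower, with a median of 0.13. The shares over all probe sets there were 4.77% and 4.93%. AT2G07718 was at 7.49 and 7.32 in control, 8.51 and 8.13 in local and 6.96 and 7.08 in systemic leaves, a rise of 0.91 ± 0.14 (adjusted p = 0.0028 by limma). Its local leaves were above systemic leaves by 1.30 ± 0.14 (adjusted p = 0.0018), more than for any member. AT2G07707 rose by 0.54 ± 0.13 and AT2G07739 by 0.38 ± 0.09. Both of these calls were lost without control replicate 2 or local replicate 1 (adjusted p between 0.09 and 0.12), and that of AT2G07739 also without local replicate 2 (adjusted p = 0.094). The probe set names of AT2G07718, AT2G07707 and AT2G07739 carry the suffix that marks a match to more than 1 transcript. For them the nuclear and the mitochondrial source cannot be told apart. The same suffix is on the probe sets of nad6, matR, mttB and ccmFC and on 257338_s_at of nad5, and the same limit holds for their values. Probe sequences were not compared with either genome. The source of the signal was thus not determined for the sets without the suffix either, among them those of nad4L, nad9, cox1 and cox2.

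Genes of the plastid genome, the other organelle genome read by the same labelling, were for the most part not called. Their median level was 11.78. Some, such as atpE and atpB, lay near the highest deposited value of 14.66, where a difference may not show. Replicate 1 was above replicate 2 for most plastid genes in every group, which the fit without a block counts as spread. Of 69 measured, 2 were higher (against 9.92% of all probe sets) and none lower (against 13.7%) in local leaves, with a median of 0.04. They were atpI, an ATP synthase subunit gene (0.51 ± 0.12, adjusted p = 0.018 by limma), and ndhJ, a subunit gene of the plastid NDH complex (0.59 ± 0.17, adjusted p = 0.044). The call of atpI was lost without control replicate 2 or local replicate 1 (adjusted p = 0.089 and 0.13), and that of ndhJ without control replicate 2, local replicate 1 or local replicate 2 (adjusted p = 0.21, 0.22 and 0.088); without control replicate 2 the value of ndhJ was 0.38. In systemic leaves 1 plastid gene was called, the ribosomal protein gene rpl36 (0.46, adjusted p = 0.033), a call lost with any array left out (adjusted p between 0.052 and 0.16).

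Nuclear genes for the same complexes were called in few cases, but the lists were covered only in part. A probe set listing 1 gene was found for 6 of 15 genes of complex I, 4 of 11 of complex II and 8 of 11 of complex III and cytochrome c. For complex IV and its assembly it was 5 of 9, and for ATP synthase 1 of 7. On the array 8730 of 22810 probe sets list no gene, and the remaining genes of the lists were not examined. Over all probe sets tested, 23.6% were called in local leaves against control, 13.7% were called lower, and 13115 of 22746 lay below control. All 6 measured nuclear genes of the complex I list were below control in local leaves (-0.33 to -0.07, median -0.25). Only AT4G02580 of them was called, and it fell by 0.33 ± 0.10 (adjusted p = 0.049 by limma). That call was lost with any array left out (adjusted p between 0.059 and 0.26), after median centring, after cyclic loess and with only the 4 arrays compared (0.072, 0.086 and 0.059). None of the 5 measured nuclear genes of complex IV and its assembly was called (-0.46 to 0.28). The lowest of them, AT3G15640, just missed the threshold (-0.46 ± 0.14, adjusted p = 0.05 after rounding, by limma), with both local arrays below both control arrays. None of the 4 genes of complex II, succinate dehydrogenase, was called (-0.25 to 0.16), nor was the single ATP synthase gene AT5G47030 (-0.15 ± 0.11).

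Cytochrome c, the soluble carrier that hands electrons to cytochrome c oxidase, is encoded by 2 nuclear genes, which moved in opposite directions in local leaves. CYTC-2 was at 8.38 and 8.10 in control, 9.36 and 9.23 in local and 8.83 and 8.96 in systemic leaves, and rose by 1.05 ± 0.12 in local (adjusted p = 0.00069 by limma) and 0.65 ± 0.12 in systemic leaves (adjusted p = 0.016). CYTC-1 was at 11.15 and 11.08 in control and 10.57 and 10.70 in local, with a mean of 11.05 in systemic leaves, and fell by 0.48 ± 0.10 in local leaves (adjusted p = 0.0094). Without local replicate 1 the fall of CYTC-1 was not past the threshold (adjusted p = 0.075), nor was the systemic rise of CYTC-2 without control replicate 2 or either systemic array (adjusted p between 0.061 and 0.089). These were the only calls among the 8 measured genes of the list of complex III and cytochrome c in comparisons with control.

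The alternative NAD(P)H dehydrogenases of plant mitochondria pass electrons to the chain without pumping protons, as a bypass of complex I. Of 14 genes on the alternative respiration list 5 were measured, and of these 2 rose and 1 fell in local leaves. NDB2, which faces the outside of the inner membrane, was at 7.13 and 6.70 in control, 7.81 and 7.89 in local and 7.18 and 7.35 in systemic leaves, and rose by 0.93 ± 0.15 (adjusted p = 0.0033 by limma). NDC1 rose by 0.41 ± 0.10 (adjusted p = 0.021) and NDB1 fell by 0.43 ± 0.12 (adjusted p = 0.034). NDC1 and NDB1 lost their calls without control replicate 1 or 2 or local replicate 1 (adjusted p between 0.068 and 0.21), NDB1 was at -0.28 without local replicate 1, and it was not called after cyclic loess (adjusted p = 0.068). No alternative oxidase gene of the list had a named probe set, so the list does not cover the oxidase.

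The mitochondrial stress list had 4 of 8 genes measured, and the list of mitochondrial transcription, splicing and RNA turnover 4 of 17. Of the 4 measured genes of the stress list, AT2G21640 fell by 0.62 ± 0.11 in local leaves (adjusted p = 0.0044 by limma) and none rose. Of 4 on the list of mitochondrial transcription, splicing and RNA turnover, AT5G14580 fell by 0.42 ± 0.13 (adjusted p = 0.049), a call lost with any control or local array left out (adjusted p between 0.064 and 0.23) with the replicate number as a block (0.052), after median centring (0.052), after cyclic loess (0.1) and with trended moderation (0.06). All 4 of the latter were below control in local leaves (-0.42 to -0.04), as were 13115 of all 22746 probe sets tested. In systemic leaves neither list had a call.

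**Figure D3:**
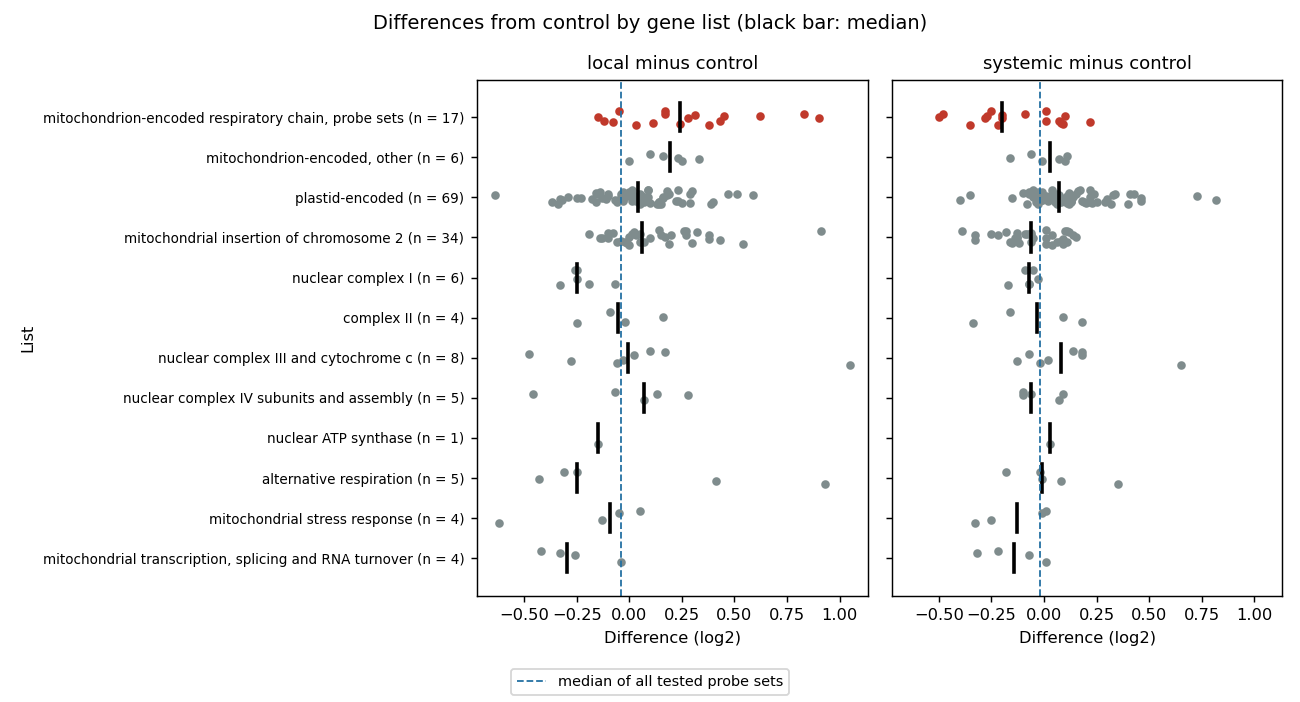
Difference from control (log2, horizontal axis) of every measured gene on each list, in local (left) and systemic leaves (right), with a black bar for the list's median and a dashed line for the median of all tested probe sets. The mitochondrion-encoded respiratory chain probe sets (red) have a median of 0.24 on the left and -0.20 on the right, and the nuclear complex I genes -0.25 and -0.07.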

How the data were processed

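Per the submitters' processing notes, the authors deposited log2 values made with RMA. The notes also list Affymetrix Expression Console, without a version. RMA gives every array one distribution of probe values, so a shift common to all transcripts is lost. The table has no detection calls. Of 22810 probe sets, 64 control sets were left out, and 22746 were tested without a filter. Mitochondrial genes were matched by symbol or synonym, and other genes by Entrez number or locus, to the TAIR10.1 gene table; nuclear lists held 92 genes. The probe set with the highest mean stood for a gene of a list. A model with group means over all 6 arrays was fitted in limma 3.58.1 (R 4.3.3), and its two-sided tests were adjusted over all probe sets (Benjamini-Hochberg). The fit was tested on simulated data. P-values rest on 2 pools per group. Named genes were all members, the other mitochondrial genes, and per list the 4 called genes with the smallest adjusted p. Members and lists were chosen with earlier results of these data known.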

Additional observations from a re-analysis of the deposited data

Results flagged for a closer look

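For 6 member probe sets the responses of local and systemic leaves differed by the test of the difference itself, the limma comparison of local with systemic leaves over all probe sets. That was 35.3% of the member probe sets, against 4.77% called higher and 9.7% called in either direction over all probe sets. The difference was 1.09 for nad4L, 0.92 for nad9, 0.89 for cox1, 0.73 for cox2, 0.65 for nad1 (257322_at) and 0.55 for nad5 (257338_s_at), all higher in local leaves. For nad1 (257322_at) it came more from a lower level in systemic leaves (-0.48 from control) than from a higher one in local leaves (0.17), while for nad4L and nad9 it came mostly from local leaves (0.90 and 0.83). Only the calls of nad4L and nad9 held with each array left out in turn. Those of cox1, cox2, nad1 (257322_at) and nad5 (257338_s_at) were each lost when certain single arrays were left out.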

How the results depend on the processing

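The number of members called in local against control was 4 and ran from 2 to 4 with single arrays left out, with 2 without local replicate 1; it was 4 with the replicate number as a block. The median member difference there was 0.24, ran from 0.11 (without local replicate 1) to 0.29, and was 0.33 after cyclic loess and 0.34 with the highest probe set of each gene. In systemic against control, 2 members were called, 0 to 1 with single arrays left out, 1 after cyclic loess, with trended moderation and with the 4 arrays compared, and 0 with the highest probe set of each gene; the median of -0.20 ran from -0.20 to -0.11. In local against systemic, 6 were called, 3 to 7 with single arrays left out and 7 with the replicate block; the median of 0.36 ran from 0.27 to 0.42, and was 0.46 with dim probe sets left out and 0.53 with the highest probe set of each gene. The replicate numbers were not taken to pair the arrays, since the deviations of same-numbered arrays correlated at 0.02 between control and systemic leaves, though at 0.14 between control and local and 0.20 between local and systemic leaves. These correlations are over the whole array. For nad4, ccmFN1 and most plastid genes replicate 1 was above replicate 2 in each group, and the fit without a block counts this as spread. With the replicate block, of the genes named, only the calls of matR and AT5G14580 were lost and that of nad1 (257325_at, local against systemic) gained.

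No called value changed its sign. A sign changed for 14 values that were not called and were each at most 0.16 in size, with single arrays left out as follows. Against control in local leaves, nad1 ran from -0.13 to 0.03 (257327_at) and from -0.08 to 0.29 (257329_at), nad2 from -0.28 to 0.11, nad5 (257337_at) from -0.09 to 0.14, ccmFN1 from -0.17 to 0.48 and mttB from -0.04 to 0.03, with mttB at 0.03 after median centring and 0.09 after cyclic loess. In systemic leaves, nad1 ran from -0.02 to 0.23 (257321_at), -0.03 to 0.18 (257323_at), -0.11 to 0.12 (257327_at) and -0.10 to 0.26 (257329_at), nad4 from -0.14 to 0.33 and nad7 from -0.11 to 0.13. In local against systemic, nad1 (257327_at) ran from -0.18 to 0.06 and nad4 from -0.04 to 0.34. The cause of these changes was not tested. Calls over the whole array numbered 2257 higher and 3117 lower in local against control, and 1437 and 1386 without local replicate 1; lower calls were 2077 without control replicate 1. In systemic against control, 1076 were higher and 835 lower, with 537 to 935 higher and 250 to 732 lower with single arrays left out; in local against systemic, 1084 and 1122, with 358 to 1175 and 200 to 1154. Alternatives for genes that are not members were added after the data were seen. With 3 of 17 member probe sets below the lower quartile of the array, small changes of these would not be seen.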

Other observations

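Of the 10 genes, nad4L, nad6, nad9 and cox1 are known to have no intron in Arabidopsis, and the other 6 are split. This grouping was made after the values were seen and carries no test. Signal level ran along with it: the median level was 6.20 for probe sets of genes without introns and 5.42 for those of split genes. The 3 member probe sets below the lower quartile, of nad1 and nad5, are all of split genes, and 7 sets of split genes read nad1. The part of signal level was not tested. The 4 probe sets of genes without introns differed by 0.31 to 0.90 in local leaves against control, and the 13 of split genes by -0.15 to 0.45. In systemic leaves the first ran from -0.27 to -0.09 and the second from -0.50 to 0.22. Against systemic leaves, local leaves differed by 0.50 to 1.09 and by -0.30 to 0.73. Of the 6 other mitochondrial genes, ccmFC is split and differed by 0.23 in local leaves against control. The others have no intron and differed by 0.33 (matR), 0.25 (ccmFN2), 0.16 (ccmFN1), 0.10 (ccmB) and 0.00 (mttB).

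Some organelle transcripts differed between replicates in the same direction in all 3 groups. Replicate 1 was above replicate 2 by 0.47, 0.35 and 0.38 for nad4 and by 0.65, 0.33 and 0.37 for ccmFN1 in control, local and systemic leaves, and it was above in 56, 59 and 58 of 69 plastid genes. Over all probe sets the median of this difference was -0.01 in each group, and over the 17 members it was -0.07, 0.01 and -0.04.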
